A study of Mus musculus with 2 samples.

Results

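The genes described are those of the corepressor assembly that the erythroid repressor GFI1B recruits: Gfi1b and its paralog Gfi1, the lysine demethylase genes Kdm1a (encoding LSD1) and Kdm1b (LSD2), the CoREST scaffold genes Rcor1, Rcor2 and Rcor3, and the associated subunit genes Phf21a and Hmg20b. They were chosen by name, and all 9 were matched among 43346 gene rows. Poly(A) RNA had been sequenced in paired-end mode from G1E-ER4 cells, a mouse erythroid line grown from embryonic stem cells without a functional Gata1 gene, into which a GATA1-estrogen receptor fusion had been introduced. The ligand 17beta-estradiol, given at 10 nM over 30 h, switches this fusion on and starts differentiation. The line is labelled male. Both libraries (biological replicates 1 and 2 in the labels) belong to this 1 group, and an untreated library was not analysed here, so the values describe a state and not a response to estradiol. How the cultures were separated is not in the labels, and the spread between the libraries may be technical.

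GFI1B and GFI1 are zinc finger proteins that bind DNA and carry at their N-terminus a short SNAG domain, which imitates the tail of histone H3 and docks into the catalytic pocket of LSD1. LSD1 removes methyl groups from lysine 4 of histone H3 in complex with a CoREST protein, which bridges it to nucleosomes and to the histone deacetylases HDAC1 and HDAC2, so that active marks are removed from GFI1B-bound genes. In erythroid cells and megakaryocytes GFI1B is required for differentiation, while GFI1 acts mainly in granulocytes, lymphocytes and stem cells.

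The library totals were 73681318 and 56056404 expected counts. All 7 erythroid marker genes examined reached 1 TPM (the unit of transcript abundance after correction for length, with an equal total in each library) in both libraries, with Hbb-bs at 154254 and 133818 TPM and Slc4a1 at 759.98 and 557 TPM in replicates 1 and 2. None of the 8 granulocyte and myeloid markers reached 1 TPM in both. Their summed level differed between the libraries, at 0.310 TPM (37 counts) in replicate 1 and 11.4 TPM (862 counts) in replicate 2, with S100a8 at 0 counts in both. Megakaryocyte markers summed to 21.8 and 17.9 TPM, with 3 of 6 at 1 TPM or more in both libraries, and no lymphoid or mast cell marker reached that level. Of 4 neural markers, Tubb3 had 7.17 and 7.21 TPM and the other 3 had 0 counts in both libraries.

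For 3 members, the transcript results below compare annotated transcripts that differ in a stretch of coding sequence. These stretches are shown in capitals, with 20 bases of the neighbouring coding sequence of the same transcript on each side in lower case, from GENCODE M21 on mm10. In Gfi1b-204 the sixth exon starts 99 bases (33 codons) earlier than in Gfi1b-201, at chr2:28611585-28611683 on the minus strand. Kdm1a-202 holds a 60-base exon (20 codons) that Kdm1a-203 skips, at chr4:136582040-136582099 on the minus strand, and Kdm1a-208 holds a 12-base exon (4 codons) at chr4:136563438-136563449, known as the exon that neurons include. Phf21a-208 uses a 23-base exon at chr2:92351609-92351631 on the plus strand, where Phf21a-207 uses a 164-base exon at chr2:92351701-92351864.
Gfi1b-204: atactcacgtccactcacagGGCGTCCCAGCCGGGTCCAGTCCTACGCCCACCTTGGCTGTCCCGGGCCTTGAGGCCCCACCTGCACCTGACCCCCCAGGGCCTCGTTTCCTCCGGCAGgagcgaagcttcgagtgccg
Gfi1b-201: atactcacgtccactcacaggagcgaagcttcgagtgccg
Kdm1a-202: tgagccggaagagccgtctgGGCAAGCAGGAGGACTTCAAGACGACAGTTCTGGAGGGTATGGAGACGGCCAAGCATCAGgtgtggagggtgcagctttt
Kdm1a-203: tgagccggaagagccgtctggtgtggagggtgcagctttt
Kdm1a-208: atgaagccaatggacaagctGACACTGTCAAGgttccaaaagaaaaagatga
Phf21a-208: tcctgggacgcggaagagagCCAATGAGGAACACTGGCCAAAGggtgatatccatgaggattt
Phf21a-207: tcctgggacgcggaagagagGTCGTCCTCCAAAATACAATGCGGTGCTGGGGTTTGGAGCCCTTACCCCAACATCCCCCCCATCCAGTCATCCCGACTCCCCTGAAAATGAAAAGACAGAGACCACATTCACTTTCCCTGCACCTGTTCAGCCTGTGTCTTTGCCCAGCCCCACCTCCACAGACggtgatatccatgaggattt

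The 9 genes spanned more than 2 orders of magnitude, with Gfi1b and Hmg20b at the top and Kdm1b and Gfi1 at the bottom. At least 1 TPM in both libraries was reached by 7 of the 9 members, against 35.3% of 21474 protein-coding genes. The median of all 9 members was 13.6 TPM, above the 0.0150 TPM of all protein-coding genes. Of the 7 members at 1 TPM or more in both libraries, the middle one by mean TPM was Kdm1a, at 34.8 TPM. The 7570 protein-coding genes that reached 1 TPM in both libraries had a median of 15.4 TPM. In RNA from many cells, a low level in every cell and a high level in a few cells cannot be told apart.

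Gfi1b (ENSMUSG00000026815.10, chromosome 2, 28609450 to 28621982, minus strand), the DNA-binding member of the assembly, reached 291.7 TPM in replicate 1 (36086 expected counts) and 209 TPM in replicate 2 (19643 counts). Its mean of 250.3 ± 58.5 TPM (SD, n = 2) was above that of 98.0% of protein-coding genes, and replicate 1 was the higher library. Gfi1 (chromosome 5, 107716657 to 107726036, minus strand), the paralog, had 0.430 and 0.580 TPM, from 31 and 27 counts. Gfi1b thus held 99.9% and 99.7% of the summed TPM of the pair. The ratio of the TPM values was 678 in replicate 1 and 360.2 in replicate 2, so its size differed between the libraries while Gfi1 was low in both. The TPM of Gfi1 was slightly higher in replicate 2, but its counts were too few to show a difference. Its scaled count ratio of replicate 2 to replicate 1 was 1.20, with a 95% counting interval of 0.690 to 2.08. The granulocyte markers were higher in replicate 2, and their part in the level of Gfi1 was not tested.

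Kdm1a (chromosome 4, 136550540 to 136602723, minus strand), which encodes the demethylase that the SNAG domain binds, stood at 27.5 TPM in replicate 1 (5840 counts) and at 42.0 TPM in replicate 2 (6824 counts; mean 34.8 ± 10.2 TPM, SD, n = 2). Replicate 2 was the higher library for this gene, the opposite of Gfi1b. Kdm1b (chromosome 13, 47043499 to 47085279, plus strand) encodes the related demethylase LSD2, which works outside CoREST complexes, and had 0.850 and 0.760 TPM from 249 and 181 counts. Kdm1a exceeded it by 3.95 and 4.61 on the log2(TPM + 1) scale, a mean of 4.28 ± 0.47 (SD, n = 2), and held 97.0% and 98.2% of the summed TPM of both genes. Exons of Kdm1b overlap those of Dek on the opposite strand, which had 1339 and 1337 TPM. The sources used here do not give the strand setting of the counting, so reads of Kdm1b and Dek may not have been told apart.

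The CoREST scaffold genes were ordered Rcor1, Rcor3, Rcor2 in both libraries. Rcor1 (chromosome 12, 111039351 to 111115901, plus strand), the founding CoREST gene, had 45.3 and 49.0 TPM (14733 and 15138 counts). Rcor3 (chromosome 1, 192098546 to 192138062, minus strand) had 13.9 and 13.2 TPM (1516 and 1057 counts), and Rcor2 (chromosome 19, 7267325 to 7275225, plus strand), best known from neural and embryonic stem cells, had 6.12 and 6.74 TPM (730 and 551 counts). Rcor1 held 69.4% and 71.0% of the summed TPM of the 3 genes, Rcor3 21.2% and 19.2%, and Rcor2 9.37% and 9.77%. Of the Rcor2 level, 1.53 and 2.53 TPM were assigned to Rcor2-204, from 32.3 and 38.7 counts. This is a 439-base fragment annotated as protein-coding, so a sum over protein-coding transcripts keeps it. On the log2(TPM + 1) scale Rcor1 exceeded Rcor2 by 2.70 ± 0.01 and Rcor3 by 1.73 ± 0.12, and Rcor3 exceeded Rcor2 by 0.97 ± 0.13 (SD, n = 2). The SD of 0.01 holds for TPM and not for counts. By counts scaled for library size and composition, Rcor1 was 1.42-fold and Rcor2 1.04-fold higher in replicate 2. The deposited gene lengths of replicate 2 over replicate 1 had ratios of 1.23 for Rcor1 and 0.912 for Rcor2. The TPM ranges of the 3 genes over the libraries did not overlap.

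The remaining subunit genes, Hmg20b and Phf21a, differed widely in level. Hmg20b (chromosome 10, 81346048 to 81350480, minus strand) encodes an HMG-box subunit of LSD1-CoREST complexes and had 271 and 281 TPM from 15199 and 12753 counts. Phf21a (chromosome 2, 92093117 to 92364666, plus strand) encodes BHC80, a PHD finger protein that reads histone H3 without methylation at lysine 4. It had 8.23 and 8.97 TPM from 2236 and 1858 counts, while its paralog Phf21b was assigned no reads in either library (0 counts, for which the upper limit is 3). In the order of mean TPM (Hmg20b, Gfi1b, Rcor1, Kdm1a, Rcor3, Phf21a, Rcor2, Kdm1b, Gfi1), Hmg20b and Gfi1b were the only neighbours whose ranges over the libraries overlapped.

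The first place of Hmg20b rested on how its TPM was divided among transcripts. TPM divides counts by length, so a short annotated fragment can take a large share with few counts. Transcripts annotated as retained introns held 67.0% and 62.4% of Hmg20b TPM, but 45.2% and 39.7% of its counts. The leading one, Hmg20b-207, is 597 bases long, has no coding sequence, and held 48.3% and 42.6% of TPM with 4317 and 2907 counts. The longest coding transcript with more than 10% of TPM, Hmg20b-201 of 1621 bases, held 12.7% and 18.1% of TPM with 3763 and 4201 counts, and by counts it was the leading transcript in replicate 2. When only transcripts annotated as protein-coding were summed, an alternative chosen after the values were seen, Hmg20b had 88.6 and 105.3 TPM and Gfi1b 291.6 and 209 TPM. Gfi1b was then the highest member, and the ranges of the 2 genes no longer overlapped. Rcor3 moved from a mean of 13.6 to 9.68 TPM, and the order of the other 7 members was the same. That sum keeps Rcor3-208, a 345-base fragment annotated as protein-coding, with 1.80 and 2.12 TPM from 25.5 and 21 counts. With it Rcor3 had 10.3 and 9.10 TPM, and Phf21a, the next lower member, had 8.22 and 8.89 TPM. The order of these 2 genes by mean therefore depends on whether the fragment is kept.

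**Figure D1:**
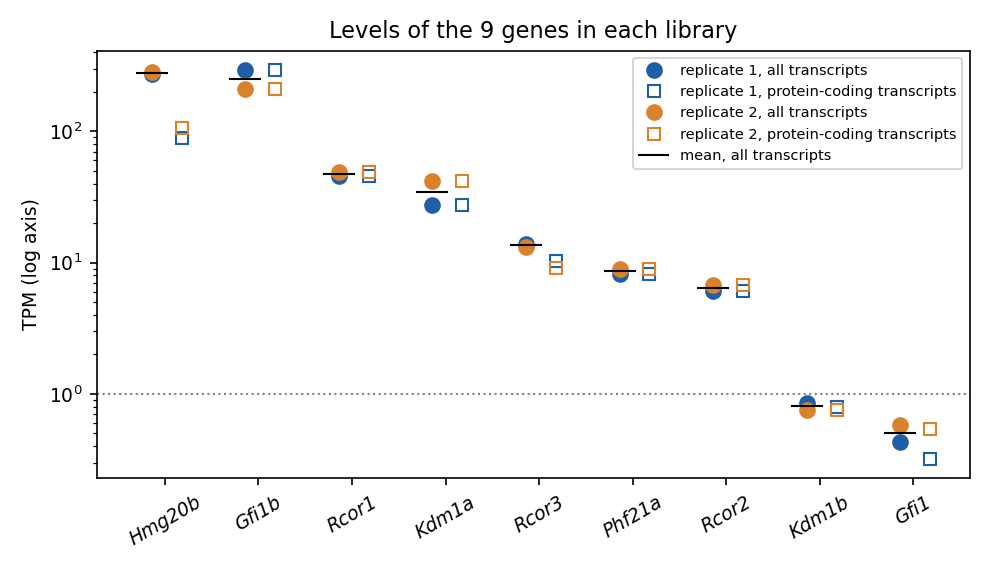
TPM (log axis) of the 9 genes in each library, as filled circles for all transcripts and open squares for protein-coding transcripts alone; black lines are means over both libraries for all transcripts and the dotted line marks 1 TPM. Hmg20b falls from a mean of 276 to 97.0 TPM when only protein-coding transcripts are counted, while Gfi1b stays at 250.3 and 250.2 TPM.

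Most Gfi1b signal was assigned to the longer of its 2 full-length coding transcripts. Gfi1b-204 (ENSMUST00000164290, 1822 bases, 1089 of them coding) holds the 99-base stretch shown above and had 95.2% and 94.8% of Gfi1b TPM, from 34497 and 18700 counts. Gfi1b-201 (ENSMUST00000028156, 1681 bases, 990 of them coding) lacks it and had 4.79% and 5.23%, from 1588 and 943 counts. The replicates therefore differed by less than 1 percentage point in this split, although the gene level differed. The assignment is an estimate over whole transcripts, and reads that cross the edges of the stretch were not counted on their own. The 2 transcripts also differ outside the stretch.

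Kdm1a signal was divided between the transcripts with and without the 60-base exon. Kdm1a-202 (ENSMUST00000105847), which includes it, had 66.1% of Kdm1a TPM in replicate 1 and 77.7% in replicate 2, and Kdm1a-203 (ENSMUST00000116273), which skips it, had 32.8% and 21.8%. In TPM, Kdm1a-202 went from 18.2 in replicate 1 to 32.6 in replicate 2, while Kdm1a-203 stood at 9.03 and 9.16. By this whole-transcript estimate, the higher Kdm1a level of replicate 2 was assigned to Kdm1a-202. The 2 transcripts, of 3028 and 3008 bases, also differ outside the 60-base exon. Reads that cross the edges of the exon were not counted on their own, so a change in its inclusion was not tested. Kdm1a-208, the only annotated transcript with the 12-base exon, is a fragment of 965 bases and was assigned 0 counts in both libraries. A fragment model can fail to take reads that longer models also hold, so this shows only that no reads were assigned to it.

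The scaffold genes differed in how stable their transcript shares were. Rcor1-201 (5684 bases) had 60.6% of Rcor1 TPM in replicate 1 and 96.1% in replicate 2, and Rcor1-202 (2720 bases), which ends earlier in the last exon and starts later in the first, had 39.5% and 3.91%. The counts of Rcor1-202 were 3419 and 280. Rcor2-202 led Rcor2 with 57.7% and 39.8%, followed by Rcor2-204, a 439-base fragment with 24.98% and 37.5% of TPM from 32.3 and 38.7 counts, and Rcor2-201 with 17.3% and 22.7%. Rcor3-207 led Rcor3 with 58.4% and 50.7%, and the non-coding Rcor3-212 of 629 bases had 17.2% and 21.1%.

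Transcripts with each form of the Phf21a stretch were assigned reads. Phf21a-208, with the 23-base exon, led with 59.4% and 47.6% of TPM, and Phf21a-207, with the 164-base exon, followed with 30.7% and 38.6%. Summed over all annotated transcripts that hold them, the 23-base exon had 62.0% and 53.8% of Phf21a TPM and the 164-base exon 34.3% and 41.5%. Transcripts with the 23-base form had the larger share in both libraries, and the gap was narrower in replicate 2. Phf21a-208 (3710 bases, 18 exons) and Phf21a-207 (3900 bases, 19 exons) also differ outside these exons. The shares are estimates over whole transcripts, and reads that cross the edges of either exon were not counted on their own. By TPM, the leading transcript of each of the 7 members at 1 TPM or more was the same in both libraries. Gfi1 and Kdm1b were too low for a reading of their transcripts.

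**Figure D2:**
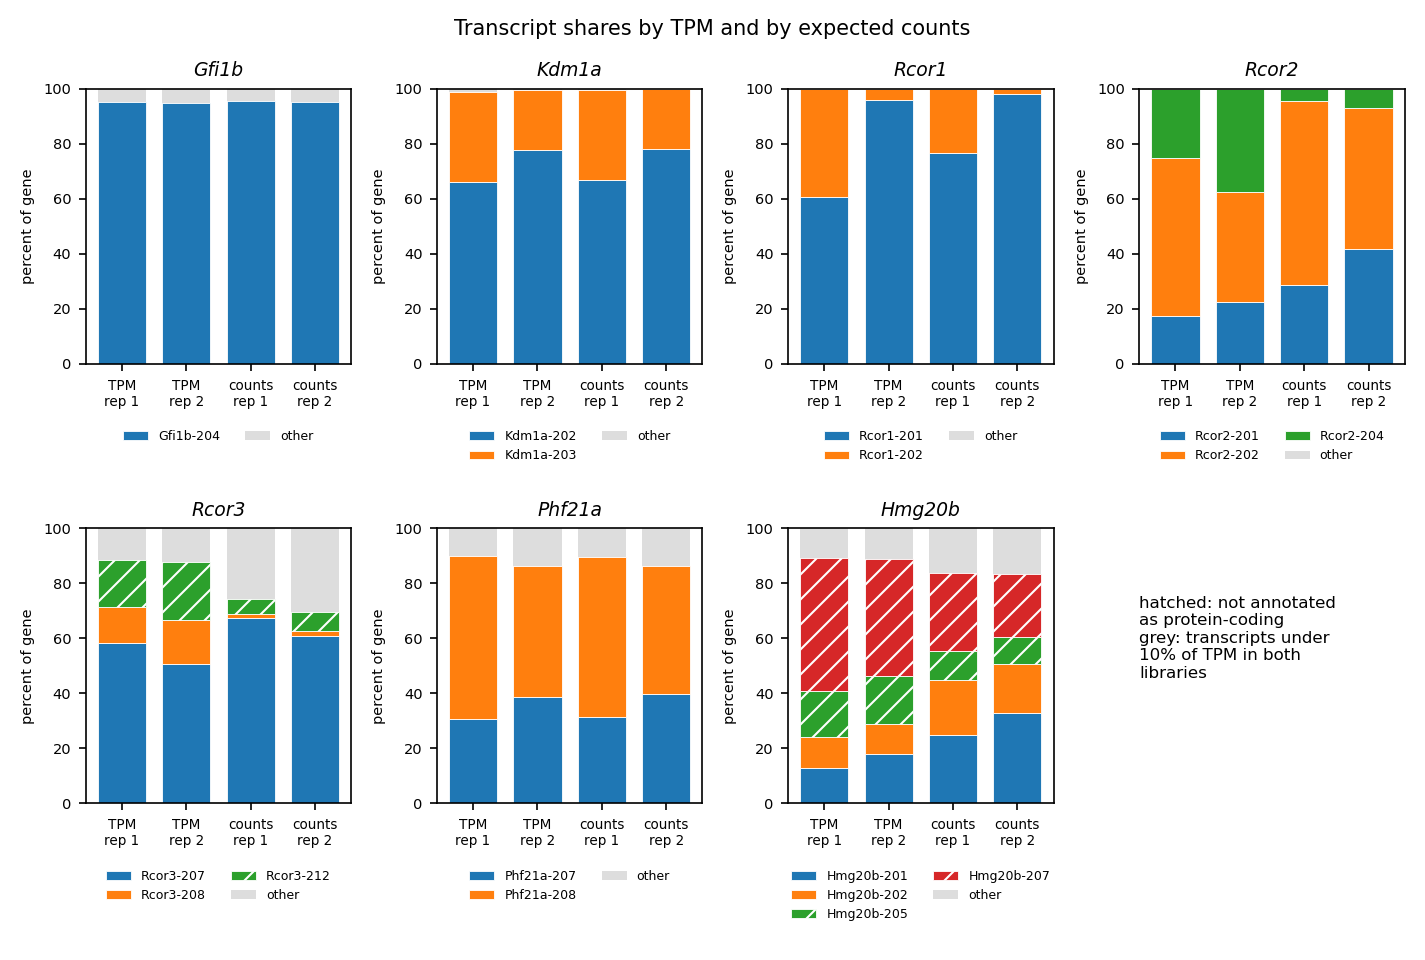
Percent of each gene held by its transcripts, by TPM and by expected counts in each library (rep 1 and rep 2); colours are transcripts with at least 10% of TPM in either library, hatching marks transcripts not annotated as protein-coding, and grey is the rest. Gfi1b-204 holds 95.2% and 94.8% of TPM, Rcor1-202 falls from 39.5% to 3.91%, and Hmg20b-207 holds less by counts than by TPM.

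The libraries were then compared on counts after TMM scaling, a correction for library size and composition. With 1 library on each side this has no replicate check and compares the libraries, not conditions; the intervals are exact binomial 95% intervals and cover counting error only. Of the 9 members, 1 passed a 1.5-fold difference, Kdm1a, against 15.8% of 10445 genes with at least 20 summed counts, so the share of members past it was near the background. Kdm1a was 1.61-fold higher in replicate 2 (1.56 to 1.67), and 5.16% of all genes tested were at least 1.5-fold higher there. None of the 9 members was at least 1.5-fold lower in replicate 2, against 10.7% of all genes tested. Gfi1b was 1.33-fold higher in replicate 1, with a ratio of replicate 2 to replicate 1 of 0.751 (0.738 to 0.764). The ratio of Gfi1b to Kdm1a TPM, examined after both values were seen, was 10.6 in replicate 1 and 4.98 in replicate 2.

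Rcor1 gave different answers by counts and by TPM. Its scaled counts were 1.42-fold higher in replicate 2 (1.39 to 1.45), whereas its TPM was 1.08-fold higher. Its deposited gene length was 4515 bases in replicate 1 and 5568 bases in replicate 2, a ratio of 1.23, and the longer Rcor1-201 had the larger share in replicate 2. Hmg20b was 1.16-fold (1.13 to 1.18) and Phf21a 1.15-fold (1.08 to 1.22) higher in replicate 2. For Rcor2 (1.04, 0.930 to 1.16), Rcor3 (0.962, 0.888 to 1.04), Kdm1b (1.00, 0.823 to 1.22) and Gfi1 (1.20, 0.690 to 2.08) the interval of the ratio of replicate 2 to replicate 1 included 1, and for Gfi1 it was wide. The median size of the difference was 0.21 on the log2 scale over the members and 0.24 over all genes tested.

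**Figure D3:**
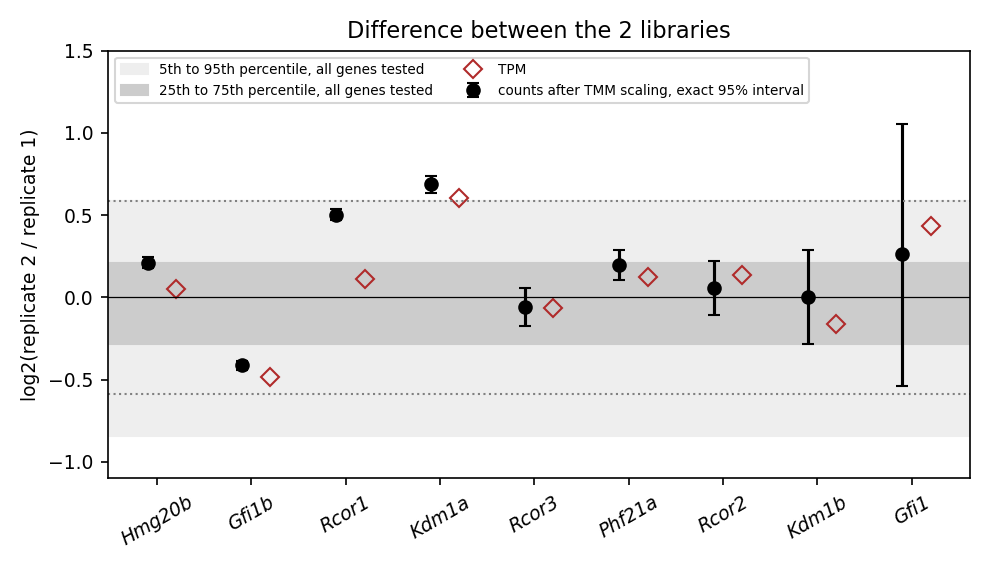
Log2 ratio of replicate 2 to replicate 1 for the 9 genes, as black circles for counts after TMM scaling with exact 95% counting intervals and red diamonds for TPM; grey bands run from the 25th to the 75th and from the 5th to the 95th percentile of the 10445 genes tested and dotted lines mark 1.5-fold. Kdm1a lies above the upper line by counts, and Rcor1 is higher by counts (1.42-fold) than by TPM (1.08-fold).

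Partners of the assembly were examined in 4 lists of 28 genes in all. Of these, 17 reached 1 TPM in both libraries, against 35.3% of all protein-coding genes. Among 10 complex partners and paralogs of members, 8 did, and the median over the 10 was 13.3 TPM. Gse1, which encodes a protein found with LSD1 and HDAC2, was highest at 199 ± 5.71 TPM, followed by the corepressor gene Ctbp1 at 165.6 ± 4.88 TPM and the zinc finger gene Zfp217 at 28.2 ± 0.30 TPM. The deacetylase genes Hdac1, at 19.1 and 17.2 TPM, and Hdac2, at 9.38 and 10.5 TPM, were below Kdm1a and Rcor1 in both libraries. Hdac1 exceeded Hdac2 by 0.81 ± 0.21 on the log2(TPM + 1) scale. Kdm1a was below Rcor1 in both libraries, by 0.70 in replicate 1 and 0.22 in replicate 2 on that scale, as a mean of −0.46 ± 0.34.

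No other SNAG-domain factor examined reached 1 TPM in either library, while 35.3% of all protein-coding genes reached it in both. The 6 genes Snai1, Snai2, Snai3, Insm1, Scrt1 and Scrt2 summed to 17 counts in replicate 1 and 9 counts in replicate 2, and 3 of them had 0 counts in both libraries. The highest, Scrt1, had 0.0400 and 0.0500 TPM. Among the SNAG genes examined, Gfi1b was therefore the only one above 1 TPM.

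Genes reported elsewhere as targets that GFI1B or GFI1 represses were not uniformly low. Of 8 such genes, 6 were at 1 TPM or more in each library, against 35.3% of all protein-coding genes. The median over the 8 was 14.1 TPM. The survival gene Bcl2l1 had 319 ± 3.63 TPM, the cell cycle inhibitor gene Cdkn1a 174 ± 27.5 TPM and Myc 50.7 ± 10.2 TPM. The cytokine signalling inhibitor genes Socs1 and Socs3 had 23.4 ± 0.76 and 4.76 ± 0.23 TPM, and the stem cell factor gene Meis1 1.57 ± 0.08 TPM. Rgs18, a regulator of G protein signalling, had 2 and 0 counts, and Tgfbr3, a TGF-beta co-receptor gene, 0 counts in both libraries. Without an untreated or Gfi1b-deficient library, these levels carry no information on repression.

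The KDM5 genes, which encode another family of histone H3 lysine 4 demethylases acting on the trimethylated form, were higher than Kdm1a in part. Kdm5c had 103.9 and 102.9 TPM, Kdm5b 46.7 and 57.8 TPM, Kdm5a 22.6 and 19.1 TPM, and the Y-linked Kdm5d 0 counts in a line labelled male. Kdm5c and Kdm5b were above Kdm1a in both libraries, and Kdm5a below it.

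**Figure D4:**
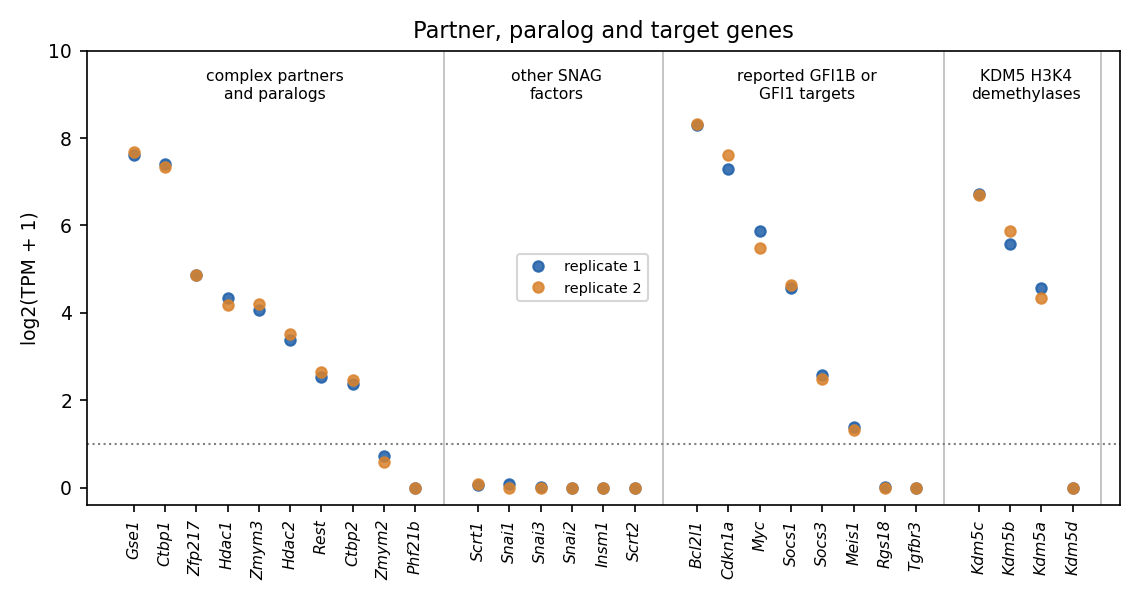
Levels of 28 partner, paralog and target genes as log2(TPM + 1) in each library (blue, replicate 1; orange, replicate 2), ordered by mean within each list; the dotted line marks 1 TPM. The 6 other SNAG factors lie near 0. In both libraries 17 of the 28 genes lie above the line, against 35.3% of all protein-coding genes.

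The promoter of Gfi1b is shown because it is the member with the highest coding level and is known to be bound by GATA1 and by GFI1B itself. Of 13 RefSeq promoter windows (GRCm38.p6) matched to the 9 members, it was the only one with the letters GATAA, the core of GATA sites (read as TTATC on the other strand), in the 250 bases before the start. The letters AATCA (read as TGATT on the other strand), which hold the core of GFI1 sites, were also searched on both strands, and the matches of both motifs, which do not overlap, are in capitals. The window is chr2:28621983-28622232, minus strand.
Gfi1b promoter: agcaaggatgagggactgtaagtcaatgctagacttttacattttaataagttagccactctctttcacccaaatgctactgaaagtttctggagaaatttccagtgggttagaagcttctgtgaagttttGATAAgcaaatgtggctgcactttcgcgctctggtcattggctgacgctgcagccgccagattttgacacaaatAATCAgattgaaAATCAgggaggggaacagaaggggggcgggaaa
It holds GATAA 1 time and AATCA 2 times. Of 32851 promoter windows of this length, 22.6% hold GATAA, 33.7% hold AATCA and 9.14% hold AATCA at least 2 times. These shares are over windows of any GC content. The Gfi1b window has a GC content of 44.4% and a Phf21a window 30.8%, while the other windows of members have 57.6% to 82.8%. The part of GC content in the matches was not tested. The Hmg20b windows overlap one another, so the 13 windows are not independent. Both Gfi1 windows hold neither motif, and 3 windows of other members (Phf21a, Kdm1b and Rcor2) hold AATCA 1 time each. A match is a description of the letters and not evidence of binding in these cells.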

How the data were processed

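The authors deposited, for each of the 2 libraries, a gene and a transcript table on mouse mm10 with GENCODE M4, per the deposited description files; the sources used here name no aligner, quantifier, version or strand setting. The deposited expected counts are estimates of fragments assigned to each feature. Per the file headers, TPM is abundance after length correction, with an equal total in both libraries. Per the file headers, FPKM is fragments by length and sequencing depth. The deposited percent of a gene's TPM per transcript was used as given, per the file headers. Of the rows, 43346 genes were used; 26345 other rows, which held 9 counts over both libraries, were left out.

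Gene and transcript names, types and coordinates were taken from GENCODE M21 (also mm10), which matched 76 of the 77 member transcripts, 74 of them with the same length. Rounded expected counts were scaled by TMM in edgeR 4.0.16, and ratios given exact binomial intervals in Python 3.11.15 with scipy 1.17.1, over genes with at least 20 summed counts. The ratio and interval step was tested on counts simulated with counting error only and scaled by library totals. TMM scaling and spread beyond counting error were not part of that test. No p-value was computed, since there is 1 group. Alternatives used a pseudocount of 0.1, minimums of 0.5 and 5 TPM, FPKM, posterior mean TPM, library totals, DESeq2 1.42.0 size factors, other count minimums and single replicates. Named are all members, genes of the pairs, the 3 highest and the lowest gene of each list, other genes where a whole list is given, and transcripts that lead or hold at least 20% of TPM in either library; other transcripts (Gfi1b-201, Kdm1a-208, Hmg20b-201) were named after their values were seen. The Gfi1b to Kdm1a ratio and protein-coding sums were chosen after values were seen. The partner list was analysed without 1 gene, which is not reported here, and its unnamed genes are given only as counts and in the plot of partner genes. Members and lists were chosen with earlier results of these data known. Genes with 0 counts allow up to 3 counts, or 0.0407 and 0.0535 CPM; intervals and floors cover counting error only. Single fragments of PCR libraries without molecular identifiers are not independent molecules.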

Additional observations from a re-analysis of the deposited data

How the results depend on the processing

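With a pseudocount of 0.1 TPM, the mean log2 difference became 8.68 for Gfi1b over Gfi1, 5.24 for Kdm1a over Kdm1b, 2.86 for Rcor1 over Rcor2 and 6.44 for Phf21a over Phf21b, the last set by the pseudocount since Phf21b had 0 counts (3.26 at 1 TPM). With posterior mean TPM, Rcor1 over Rcor2 was 2.68 and Phf21a over Phf21b 2.96. All pairs kept their sign under each alternative. Members past the fold threshold between libraries were 1, Kdm1a, under TMM, library totals, DESeq2 size factors and both other count minimums, and 0 at 2-fold. Over all genes the count of 1652 became 2776 without a minimum beyond 1 count in each library, 1012 at 100 summed counts and 502 at 2-fold. The share of called genes that were higher in replicate 2 was 32.6% with TMM scaling and 24.2% with library totals. A total without globin and mitochondrial genes, which held 27.0% and 28.5% of TPM, raised every member alike. Leaving out a replicate gives the other library's value, printed for each member. No paired analysis was possible because there is 1 group. With 31 and 27 counts for Gfi1, depth limits its ratio and transcript shares.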

Other observations

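Gene level and GC content moved together in these libraries. Over 7570 protein-coding genes at 1 TPM or more in both libraries, Spearman's rho between mean transcript GC content and mean TPM was 0.30, as a description across genes that share libraries and are not independent. Genes below the median GC content of 51.4% had a median of 9.60 TPM and the others 25.3 TPM. The 2 highest members had a GC content of 61.5% (Hmg20b) and 56.7% (Gfi1b), while Kdm1a had 46.4%, Kdm1b 46.8% and Rcor1 48.3%. The lowest member, Gfi1, had 59.4%, and Rcor2 60.3%. The part of GC content in the order of the members was not tested.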
